A study of Mus musculus with 22 samples.

Results

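A group of 10 genes that encode folding and calcium-buffering proteins of the endoplasmic reticulum (ER) and the early secretory pathway were followed in 22 single mouse astrocytes whose calcium response to ethanol (EtOH) had been classified. They were chosen by symbol for the function of their products, with earlier results of these data known. They are Hspa5, Hsp90b1, Calr, Canx, Calu, Pdia3, Pdia4, Pdia6, P4hb and Sdf4, out of 23453 genes in the count table. Each of the 10 was read in 5 or more cells, the limit set for comparing a gene between response types. The cells were 6 S-type (a sustained calcium rise), 6 T-type (a transient, sharp rise), 5 M-type (mixed signals) and 5 NR cells (nonresponsive). They came from enriched primary cultures of newborn C57BL/6 mouse cortex, made with cytosine arabinoside and shaking against other cells, deprived of serum before use and loaded with the dye Fluo-4. Cells of all 4 types, NR included, had been given EtOH at 100 mM for 3 min, with ATP at the end of an imaging experiment, so no group was free of EtOH. Each cell was drawn into a pipette by its recorded signal, and its RNA was amplified in 2 rounds before sequencing.

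The labels name neither the animal nor the culture of a cell, nor whether it was collected soon after EtOH or later. A response type is therefore a single sample here, and the types are described without tests, p-values or standard errors. A level here is a count divided by the size factor of its cell (a median of ratios, from the 3670 genes read in all cells), and the level of a type is the mean over its cells. Intervals are exact 95% intervals that cover counting error only, since the reads were amplified and carry no molecular identifiers, and so cannot be counted as molecules. The cells are numbered within their type.

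The ER lumen is the main releasable calcium store of most cells, and its calcium is held mostly by abundant, low-affinity binding proteins that also fold newly made proteins. BiP, the product of Hspa5, and the Hsp90 paralog encoded by Hsp90b1 bind exposed stretches of unfolded chains, calreticulin and calnexin hold glycoproteins by their trimmed sugars, and the protein disulphide isomerases make and rearrange disulphide bonds. When unfolded proteins build up, the sensors of the unfolded protein response lead to transcription of many of these genes, in part through the ER stress response element, a promoter motif where NF-Y sits on CCAAT and ATF6 or XBP1 on CCACG. In astrocytes, calcium signals are formed largely by release from this store through inositol trisphosphate receptors.

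Since the genes can share this control, their promoters were searched for the letters CCAAT, then 9 bases of any kind, then CCACG, on both strands from 250 bases before to 50 bases after each RefSeq start (build GRCm38.p6). The motif was found at 6 sites in 5 of the 10 genes, Hspa5, Hsp90b1, Calr, Canx and Pdia6, and at none of the starts of Calu, Pdia3, Pdia4, P4hb or Sdf4. Of all 32851 promoters of that length, 39 (0.119%) held it. The sites are shown because they split the 10 genes into the groups used further on, with the 19 bases of the motif in capitals and 5 flanking bases on each side in lower case.
Hspa5: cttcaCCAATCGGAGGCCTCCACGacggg
Hsp90b1, first site: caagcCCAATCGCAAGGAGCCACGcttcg
Hsp90b1, second site: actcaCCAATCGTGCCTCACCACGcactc
Calr: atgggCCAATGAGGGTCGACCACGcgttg
Canx: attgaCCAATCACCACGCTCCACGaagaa
Pdia6: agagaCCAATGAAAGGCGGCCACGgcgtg

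The Hspa5 window lay at chr2:34772020-34772048 on the plus strand, with its motif ending 47 bases before the RefSeq start and lying inside the bounds that GENCODE gives to Hspa5. The first Hsp90b1 window lay at chr10:86705633-86705661 on the minus strand and the second at chr10:86705528-86705556 on the plus strand, against the direction of the gene. The near ends of these Hsp90b1 motifs lay 194 and 89 bases before the start. The Calr window, also read against its gene, lay at chr8:84847070-84847098 on the plus strand, with the near end of the motif 144 bases before the start. The Canx window lay at chr11:50325795-50325823 on the minus strand (127 bases before the start) and the Pdia6 window at chr12:17266486-17266514 on the plus strand (80 bases before it). Apart from the Hspa5 site, none of them fell within a gene of GENCODE vM21. A match of letters is a description and not a measured binding site.

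A few facts on the cells bear on all that follows. Total counts per cell ran from 2937786 to 22131076, and size factors were 0.183 to 1.56 for T-type cells and 0.923 to 2.31 for all others. T-type cell 2 (size factor 0.276) and T-type cell 3 (0.183, the smallest library) stood apart, and T-type levels of 10 or more that moved by over 1.5 times without both are given with and without them. All 12 astrocyte markers were read, with summed levels from 58584 to 606721 per cell. Without T-type cells 2 and 3 the highest T-type sum of this list was 235531. The list includes Vim, the most read gene of T-type cell 6, with 1.79% of its reads. Since Vim and others of the list also mark other cells, the sum alone does not settle the cell type. The summed level of 10 microglia markers was 9.35 to 538 in NR cells, at most 154.8 in T-type, at most 12.5 in M-type and at most 3.05 in S-type, with P2ry12 at 0 in S-type, M-type and NR and Tmem119 at 0 in S-type and T-type. All 7 microglia markers compared were below 2-fold in S-type versus NR (median log2 ratio −6.88) and M-type versus NR (−6.09). T-type versus NR had 6 of the 7 below and 0 above (−2.80), while T-type versus S-type had all 7 above. Markers of other cell types were read in every type. Those of fibroblasts and mural cells summed to 1892 to 73193 for S-type cells, 4255 to 103138 for T-type cells, 324 to 30247 for M-type cells and 2555 to 16210 for NR cells. In the same order, the highest cell reached 10793, 53351, 21335 and 7038 for the oligodendrocyte lineage, 32066, 5712, 7143 and 10005 for neurons, and 578, 2499, 51.1 and 167 for endothelium. Without T-type cells 2 and 3, the highest T-type sum for the oligodendrocyte lineage was 17032. The lowest for fibroblasts and mural cells was then 10594.5. Of these lists, only Sox10, Cldn5, Cdh5 and Rgs5 were at 0 in all cells. Of 16 genes of S phase and G2/M, 16 were above 2-fold in S-type versus NR, 10 in T-type versus NR and 9 in M-type versus NR. Their highest summed level was 144134 for an S-type cell, 85106 for a T-type cell, 30385 for an M-type cell and 6141 for an NR cell. The part of these transcripts in the values of the 10 genes was not tested.

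Together the 10 genes took 0.573% of the reads in NR (SD 0.261, n = 5 cells) and 0.569% in S-type (SD 0.188, n = 6). The T-type cells gave them 0.422% (SD 0.249, n = 6) and the M-type cells 0.431% (SD 0.155, n = 5). Single cells ran from 0.214% in T-type cell 2 to 0.871% in NR cell 2, and the ranges of the 4 types overlapped. In T-type the lowest, median and highest share were 0.214%, 0.301% and 0.784%, and in S-type they were 0.390%, 0.505% and 0.836%. The M-type cells had 0.343%, 0.358%, 0.670%, 0.500% and 0.285%, and the NR cells 0.692%, 0.871%, 0.697%, 0.242% and 0.363%. T-type, M-type and NR thus held cells low and high in these transcripts. The lowest S-type cell, at 0.390%, lay above the medians of T-type (0.301%) and M-type (0.358%). The share went with neither depth nor the size factor closely (Spearman rho −0.02 and 0.22 over 22 cells, a description, since the cells of a type may share a culture).

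**Figure D1:**
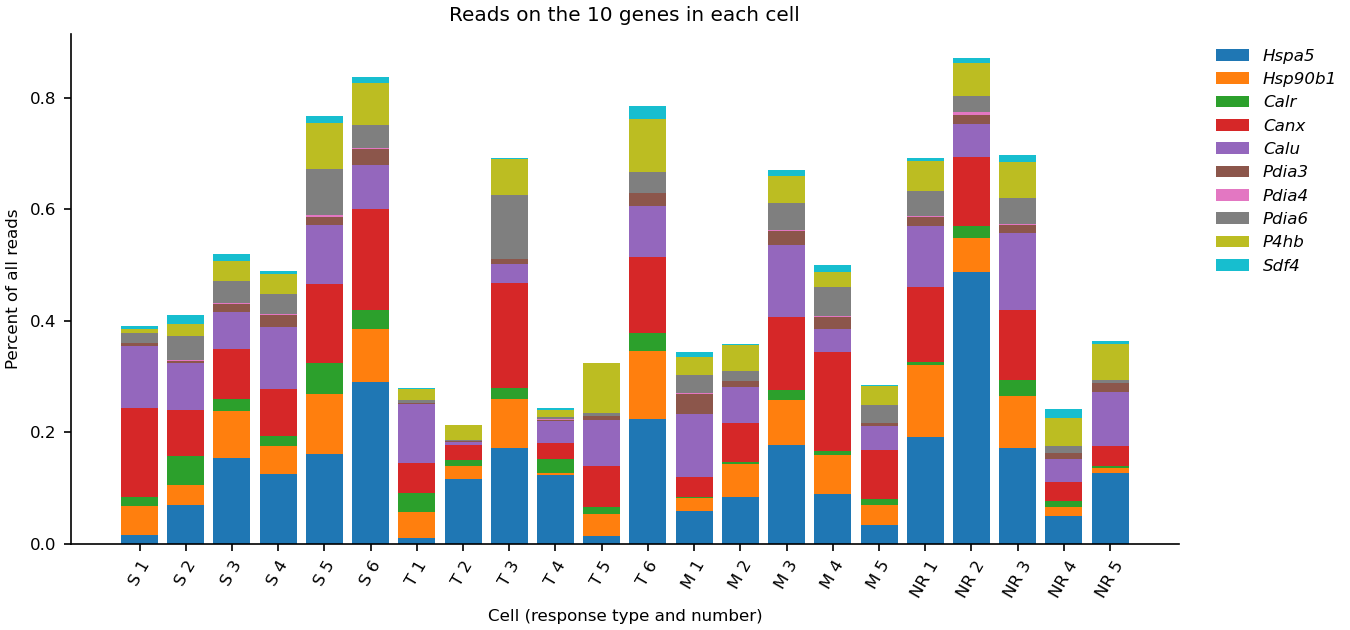
Percent of all reads of a cell (vertical axis, from 0) that fell on each of the 10 genes (colours), for the 22 cells grouped by response type. The stacked bars reach from 0.214% (T-type cell 2) to 0.871% (NR cell 2), and the lowest colour, Hspa5, varies most.

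Which gene led differed from cell to cell. Hspa5 was the most read of the 10 in 13 cells, Canx in 4, Calu in 3 and P4hb in 2. The share of Hspa5 among the reads of the 10 genes was 55.9% in NR cell 2 and 54.1% in T-type cell 2, but 3.80% in S-type cell 1 and 3.38% in T-type cell 1. Averaged over the 22 cells it was 25.4%, followed by Canx at 19.9%, Calu at 17.6%, Hsp90b1 at 11.5% and P4hb at 10.2%, with Pdia4 last at 0.187%.

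Levels of different genes were compared per kilobase of exon (GENCODE vM21). The mean level per kilobase over the 22 cells was 4116 for Hspa5, 2687 for Canx, 2181 for Calu, 2164 for P4hb, 1890 for Hsp90b1, 1111 for Pdia6, 944 for Calr, 539 for Pdia3, 158 for Sdf4 and 47.5 for Pdia4. Hspa5 was first, Sdf4 last but for Pdia4 and Pdia4 last in each of the 4 types. Calu and P4hb could not be ordered, as Calu was the higher per kilobase in 10 of 22 cells, and Canx exceeded Calu in 13 and Pdia6 exceeded Calr in 13. The lower end was firmer, since Pdia3 exceeded Sdf4 in 21 of 22 cells and Sdf4 exceeded Pdia4 in 21. Between cells the level of a gene differed by 7.81-fold (Calu) to 43.8-fold (Hsp90b1), with Pdia4, at 0 in 2 cells, left out.

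**Figure D2:**
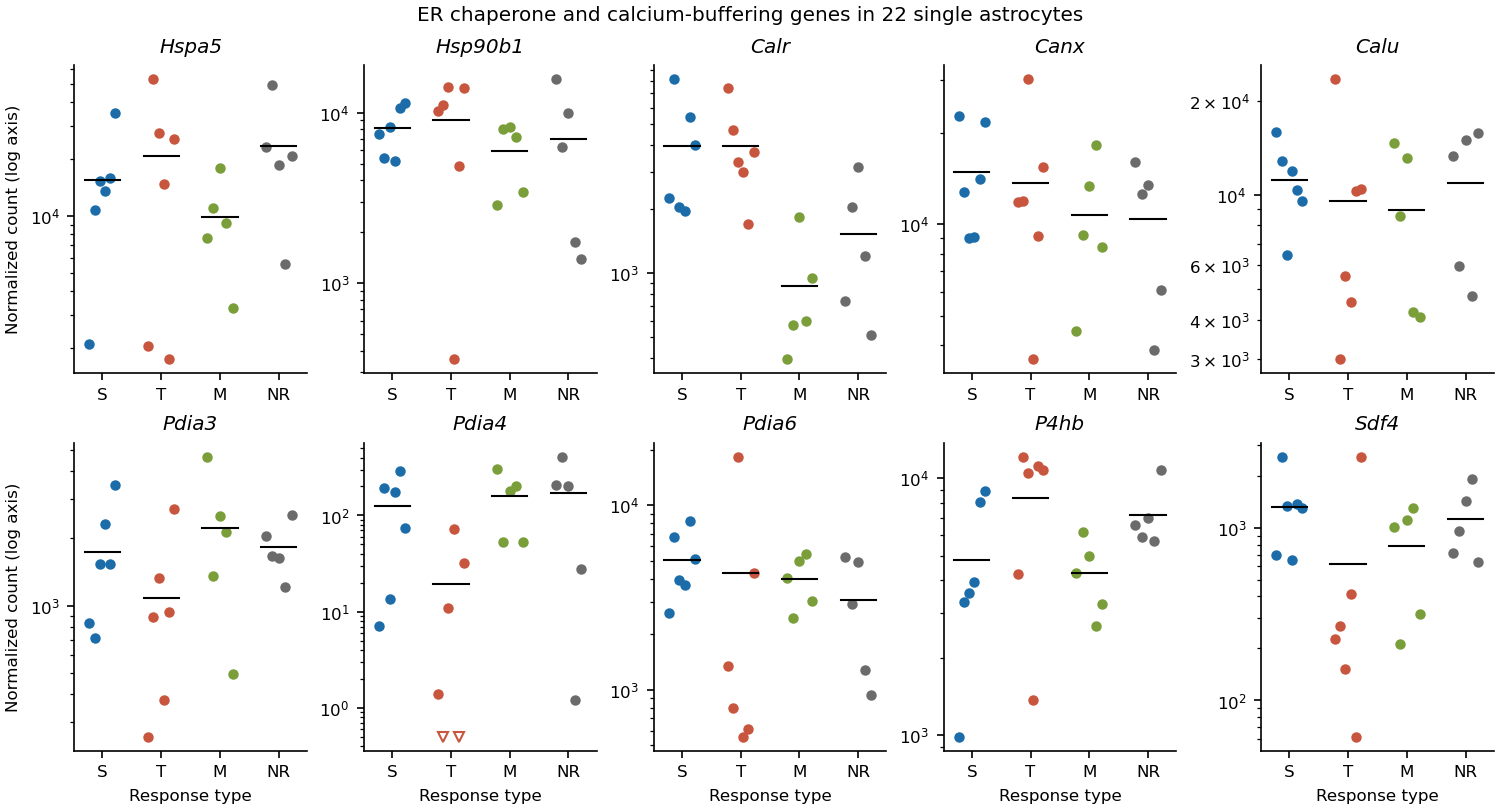
Normalized count (log axis) of each gene in single cells of the S-, T-, M- and NR types, with a bar at the mean of the type; the 2 open triangles mark T-type cells without a Pdia4 read, drawn below the axis values of the others. The types overlap in most panels, while Calr lies lower in M-type (395 to 1829) than in S-type (1958 to 8154) and most T-type cells lie low in Pdia4 and Sdf4.

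Hspa5 (chr2:34771970-34777547, plus strand) encodes BiP, the Hsp70 chaperone of the ER lumen, which also binds calcium and holds the stress sensors inactive. The level of Hspa5 had a minimum of 2111, a median of 14383 and a maximum of 34928 in S-type and of 1754, 20148 and 52662 in T-type. In the M-type cells it was 7608, 11037, 18017, 9150 and 3285. The NR cells had 23098, 49043, 18619, 5604 and 20832. The highest cells were T-type cell 2 and NR cell 2, and all types overlapped. M-type was lower than NR (9819 against 23439, log2 ratio −1.26, interval −1.27 to −1.24), which was −0.80 without NR cell 2, and so within 2-fold, and −1.59 without M-type cell 3. T-type versus S-type gave a log2 ratio of 0.43, which was −0.11 without T-type cell 2 and 0.85 without S-type cell 6. As CPM this ratio was −0.52 from pooled reads and −0.31 as a mean, and T-type versus NR gave −1.09 and −0.91. Without both T-type cells 2 and 3 the T-type level of Hspa5 fell from 20693 to 11028, with log2 ratios of −0.48 versus S-type and −1.09 versus NR, where it had been −0.18. In S-type versus NR the log2 ratio of Hspa5 was −0.61, with −1.03 without S-type cell 6 and −0.14 without NR cell 2.

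Hsp90b1 (chr10:86690209-86705509, minus strand, overlapped on the other strand by 1810014B01Rik) encodes the ER Hsp90, which folds integrins and Toll-like receptors and binds calcium. It ran from 5204 to 11368 (median 7903) in S-type and from 358 to 14056 (median 10624) in T-type. The M-type cells had levels of Hsp90b1 of 2883, 8016, 8200, 7190 and 3403, and the NR cells 15670, 6280, 9998, 1737 and 1391. T-type cell 4, with 196 reads, lay far under every other cell, and the S-type cells were the most alike (SD 32.0% of the mean, against 85.5% in NR). The type means, from 5938 in M-type to 9086 in T-type, differed by less than these spreads, and without T-type cells 2 and 3 the T-type mean was 7365, under the 8068 of S-type. No contrast passed 2-fold for Hsp90b1.

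Calr (chr8:84841850-84846934, minus strand, with the pseudogene Calr-ps elsewhere) encodes calreticulin, the chief calcium buffer of the ER lumen and a lectin chaperone of glycoproteins. It was the gene of the 10 whose levels separated the types most. In S-type Calr ran from 1958 to 8154 (median 3147) and in T-type from 1700 to 7416 (median 3536). M-type cells gave 395, 573, 1829, 599 and 950. The NR cells had 739, 2047, 3170, 1210 and 511. S-type and T-type had equal means of 3980 and 3981, NR had 1535 and M-type 869. Thus 4 of 6 T-type cells and 3 of 6 S-type cells lay above every NR cell, yet neither type was free of overlap with NR.

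The log2 ratio of Calr was 1.37 in S-type versus NR (interval 1.34 to 1.41), and between 1.03 and 1.82 when any 1 cell was left out. In T-type versus NR it was also 1.37 (interval 1.34 to 1.41), between 1.10 and 1.82 with 1 cell left out, but 0.71 as mean CPM (the count scaled to a library of 1000000 reads), which is below 2-fold. These contrasts share the NR cells. In M-type versus NR it was −0.82, with −1.29 without M-type cell 3 and −0.37 without NR cell 3. All 5 M-type cells lay under all 6 S-type cells, a comparison chosen after the values were seen, with a log2 ratio of −2.19 (interval −2.23 to −2.16) and a range of −2.66 to −1.86 with 1 cell left out. Of the 11551 genes whose mean level was 10 or more, 0.502% had no overlap between M-type and S-type, and of the 12719 genes compared 16.9% were above and 28.2% below 2-fold. As CPM the separation was lost, since M-type cell 3 had 179 against 159 in S-type cell 1.

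The share of the variance of log2(level + 1) that lay between the 4 types was 60.1% for Calr, and 0.354% of the 3670 genes read in all cells reached that share. For Pdia4 it was 37.6% and for Sdf4 35.9%. The remaining shares lay between 4.22% (Hsp90b1) and 21.3% (Pdia3), and the median of the 10 genes was 19.2% beside 13.8% over the 3670 genes. For Hspa5, the gene with most reads, 8.21% of the variance was between types.

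Canx (chr11:50293961-50325673, minus strand) encodes calnexin, the membrane-bound counterpart of calreticulin. It ran from 9020 to 22727 (median 13424) in S-type and from 3595 to 30082 (median 11883) in T-type, the T-type maximum being cell 3. Canx in the M-type cells was 4466, 9246, 13383, 18226 and 8402, and the NR cells 16098, 12591, 13516, 3864 and 6082. Canx thus overlapped in all types and did not share the low M-type level of Calr, as the means of M-type (10744) and NR (10430) were close (log2 ratio 0.04). In S-type versus NR the log2 ratio of Canx was 0.52, with a range of 0.30 to 0.73 when 1 cell was left out.

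Calu (chr6:29348069-29377110, plus strand, with Opn1sw on the other strand) encodes calumenin, an EF-hand protein of the CREC family that binds calcium with low affinity. Calu varied least between cells of the 9 genes read in all 22. It ran from 6457 to 15839 (median 11147) in S-type and from 2996 to 23388 (median 7917) in T-type. M-type cells 1 to 5 had 14688, 8575, 13137, 4227 and 4086, and the NR cells 13277, 5956, 14998, 4777 and 15721. T-type cell 1 stood above the rest of its type, the next having 10471. The 4 type means, from 8943 in M-type to 11175 in S-type, were within the spread of each type, and the log2 ratios of Calu, M-type versus S-type included, lay between −0.32 and 0.03.

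Sdf4 (chr4:155992872-156013610, plus strand) encodes Cab45, another CREC protein, which binds calcium in the Golgi lumen. In S-type it ran from 647 to 2575 (median 1322). In T-type the lowest, median and highest level were 61.6, 248 and 2572. The levels of the M-type cells were 1006, 212, 1102, 1303 and 316, and the NR cells 716, 956, 1427, 1924 and 633. Of the 6 T-type cells, 5 lay under every S-type cell, while T-type cell 6 was level with the highest S-type cell and alone held 69.6% of the T-type sum. Accordingly the log2 ratio of Sdf4 in T-type versus S-type was −1.10 (interval −1.16 to −1.04), with −2.56 without T-type cell 6 and −0.80 without S-type cell 2. Leaving out T-type cell 1, 2, 3 or 5 alone gave −0.93, −0.95, −0.90 and −0.86, and leaving out both T-type cells 2 and 3 gave −0.69, all short of 2-fold. In T-type versus NR it was −0.88, with −2.33 without T-type cell 6 and −0.60 without NR cell 4.

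Pdia3 (chr2:121413775-121438687, plus strand, overlapped by Catsper2 on the other strand) encodes ERp57, the disulphide isomerase that works with calnexin and calreticulin. It ran from 719 to 3460 (median 1537) in S-type and from 258 to 2714 (median 912) in T-type. Pdia3 in the M-type cells was 4651, 1363, 2535, 2129 and 493, and the NR cells 2054, 1677, 1642, 1214 and 2562. Of the 6 T-type cells, 4 lay under every NR cell, and the T-type mean of 1085 was the lowest of the types. The log2 ratio of Pdia3 was −0.75 in T-type versus NR and −0.68 in T-type versus S-type, both within 2-fold. Without T-type cell 6 they were −1.27 and −1.19, while T-type versus NR gave −0.55 without T-type cell 1 and T-type versus S-type gave −0.36 without S-type cell 6.

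Pdia4 (chr6:47796141-47813430, minus strand) encodes ERp72, a disulphide isomerase that associates with BiP. It had the fewest reads of the 10 genes. The T-type cells had 1, 0, 2, 40, 0 and 50 reads. The S-type cells had 8, 177, 22, 198, 372 and 100, the M-type cells 481, 75, 380, 393 and 123, and the NR cells 344, 717, 284, 2 and 30. The gene was read in 4 of 6 T-type cells and in every cell of the other types. At the depth of T-type cells 2 and 5, 0 reads allow up to 0.239 and 0.156 CPM.

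As levels, Pdia4 had a T-type mean of 19.6, against 170 in NR, 158 in M-type and 125 in S-type. The T-type total of 93 reads (interval 75.1 to 114) stood against 877 in S-type. The log2 ratio of Pdia4 was −2.68 in T-type versus S-type (interval −3.09 to −2.33) and −3.12 in T-type versus NR (interval −3.53 to −2.78). With any 1 cell left out these ran from −3.82 to −2.23 and from −4.26 to −2.50, and T-type cell 4 alone held 62.2% of the T-type sum. The groups overlapped all the same, because S-type cell 1 (level 7.10) and NR cell 4 (level 1.20) were low as well.

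Pdia6 (chr12:17266545-17284770, plus strand, overlapped by Atp6v1c2 on the other strand) encodes the isomerase P5, another partner of BiP. It ran from 2621 to 8187 (median 4540) in S-type and from 556 to 18327 (median 1071) in T-type. In M-type it was 4044, 2438, 4994, 5443 and 3025, and the NR cells 5262, 2920, 4927, 1280 and 940. Of the T-type cells, 4 lay under every S-type cell, whereas T-type cell 3, the smallest library, held 70.6% of the T-type sum with 3360 reads. The mean therefore hid this: the log2 ratio of Pdia6 in T-type versus S-type was −0.22, but −1.73 without T-type cell 3, and in T-type versus NR it turned from 0.50 to −1.01 without that cell. The other ends of these ranges were 0.01 versus S-type, without T-type cell 4, and 0.78 versus NR, without NR cell 1. Without both T-type cells 2 and 3 the T-type level of Pdia6 was 1706 in place of 4324. In S-type versus NR the log2 ratio of Pdia6 was 0.72, with 1.01 without NR cell 1 and 0.49 without NR cell 5.

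P4hb (chr11:120560298-120573253, minus strand) encodes protein disulphide isomerase itself, which is also the beta subunit of the prolyl 4-hydroxylase of collagen. It ran from 984 to 8900 (median 3760) in S-type and from 1364 to 12131 (median 10643) in T-type. Single M-type cells had 4267, 6172, 4984, 2649 and 3252, and the NR cells 6596, 5932, 7009, 5680 and 10746. Of the T-type cells, 4 lay above every S-type cell, and 4 of the 5 M-type cells lay under every NR cell. P4hb had the highest log2 ratio of the 10 genes in T-type versus S-type, 0.80 (interval 0.78 to 0.83), with a range of 0.59 to 1.08 when 1 cell was left out, past 2-fold without S-type cell 6, and with 0.53 without both T-type cells 2 and 3. In M-type versus NR the log2 ratio of P4hb was −0.75.

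Over the 10 genes, T-type versus S-type gave a median log2 ratio of −0.17 beside −0.07 over the 12719 genes compared. None of the 10 was above 2-fold and 2 were below it (Pdia4 and Sdf4), while 26% of all genes were above and 32.2% below. In T-type versus NR the median was 0.02 beside −0.05, with 1 gene above 2-fold (Calr) and 1 below (Pdia4), beside 28.6% and 32.4% of all genes. As CPM these numbers were 0 above and 2 below. In both contrasts the number of the 10 past 2-fold was below what the shares over all genes would give, and their values lay on either side of 0. A read in 5 cells was enough for a gene to be compared, whereas all of the 10 but Pdia4 were read in all 22 cells. The shares were not taken over genes of like level, so the part of level in the lower number was not tested.

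In S-type versus NR the median log2 ratio of the 10 genes was 0.12 beside 0.03 over all genes, with Calr above 2-fold and none below, where 25.1% and 22.4% of all genes were. M-type versus NR gave −0.27 beside −0.20, with none above and Hspa5 below, where 19.8% and 28.1% of all genes were. In none of these 4 contrasts were the cells of the 2 types free of overlap in any of the 10 genes. Among the genes whose mean level was 10 or more that held for 0.848% in T-type versus S-type, 1.06% in T-type versus NR, 0.433% in S-type versus NR and 0.649% in M-type versus NR. The T-type values are shared by the first pair of contrasts and the NR values by the last 3, so they are not independent.

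**Figure D3:**
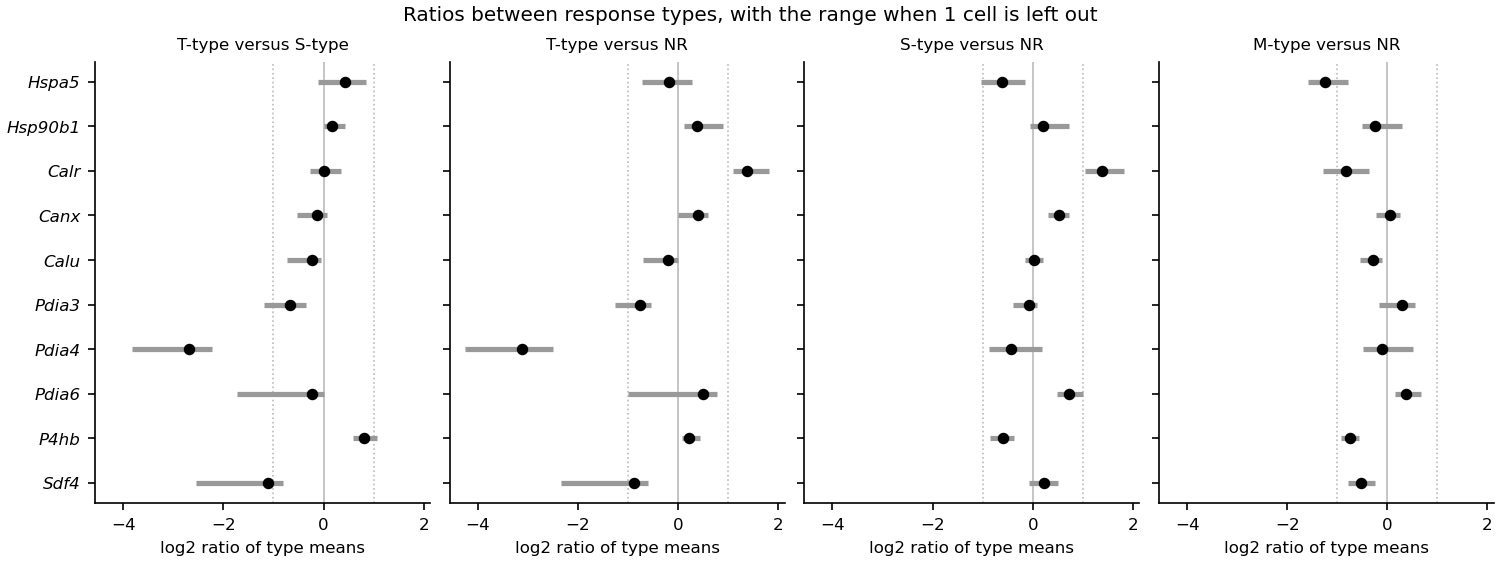
Log2 ratio of the type means (horizontal axis) for each gene in the 4 contrasts, with grey bars from the lowest to the highest value when any 1 cell is left out and dotted lines at 2-fold. Pdia4 lies at −2.68 and −3.12 in the T-type contrasts, Calr at 1.37 in both T-type and S-type versus NR, and the long bars of Pdia6 and Sdf4 come from 1 T-type cell each.

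Genes that work beside the 10 were taken from 8 lists, described by how many of the genes compared were above or below 2-fold. The T-type values were also taken without T-type cells 2 and 3. Of all genes, 22.1% were then above and 35.8% below 2-fold in T-type versus S-type, and 24.3% and 35.9% in T-type versus NR, with medians of −0.25 and −0.24. Of the 15 partners of Hsp70 and Hsp90 in the ER, 3 were above and 5 below in T-type versus S-type, with a median log2 ratio of −0.15. The most read, Dnajb9, a J-domain cochaperone of BiP, had a level of 12796 in T-type against 3758 in S-type (log2 ratio 1.77). Sec63, the J-domain protein of the translocon, stood at 8710 against 1943 (2.16), and Creld2, an ER protein of the stress response, at 120 against 986 (−3.04). Sil1, the exchange factor that frees ADP from BiP, was lower in T-type than NR (92.2 against 301). The cochaperones thus spread to both sides, as the 10 genes did. Against NR, 3 of the 15 were above and 2 below in S-type, 1 and 3 in T-type, and 1 and 5 in M-type. Over the other 4 T-type cells the counts were 2 and 6 in T-type versus S-type (median 0.10) and 1 and 4 in T-type versus NR.

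Of 15 other disulphide isomerases and oxidases compared, 1 was above and 6 were below 2-fold in T-type versus S-type (median −0.59), and 2 and 6 in T-type versus NR (median −0.95). The low side included Tmx3, a membrane-bound isomerase, at 692 in T-type against 4759 in NR (log2 ratio −2.78). Ero1lb, one of the oxidases that recharge these isomerases, had 3 reads in T-type and 2962 in NR, of which all came from 1 NR cell. Ero1l, its paralog, had higher means in T-type, S-type and M-type (265, 393 and 280) than in NR (93.8). The T-type mean of Ero1l leaned on T-type cell 6, at 1167, and the T-type median was 59.2, under the NR mean. Against NR, 3 were above and 3 below in S-type, and 3 and 2 in M-type. Over the other 4 T-type cells the counts were 0 and 6 versus S-type and 1 and 7 versus NR.

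Of 18 genes of glycoprotein quality control and ER-associated degradation, 4 were above and 5 below 2-fold in T-type versus S-type, 3 and 4 in T-type versus NR, 3 and 2 in S-type versus NR, and 1 and 7 in M-type versus NR. With T-type cells 2 and 3 left out these were 3 and 5 in T-type versus S-type, where the median turned from 0.23 to −0.75, and 4 and 6 in T-type versus NR. Vimp, a selenoprotein of the degradation complex, was the most read, with 42753 in T-type against 9833 in S-type, and 4767 and 3411 in M-type and NR. T-type cells 2 and 3 held 93.0% of that T-type sum, and without them the T-type level of Vimp was 4477, under that of S-type. Sel1l, the scaffold of the same complex, was lower in T-type (604, or 617 without these cells) than in S-type (2316) and NR (2260).

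The other calcium binders of the secretory pathway were compared with the buffers among the 10. Of 10 compared, 4 were above and 1 below 2-fold in T-type versus S-type, 2 and 3 in T-type versus NR, 1 and 5 in S-type versus NR, and 0 and 6 in M-type versus NR. The T-type counts without cells 2 and 3 were 2 and 2 (median −0.30 in place of 0.53) and 2 and 6 (−1.58 in place of −0.45). Rcn2, a CREC relative of Calu, stood at 12347 in NR and 9712 in T-type, beside 6262 in M-type and 3422 in S-type, but T-type cells 2 and 3 held 77.4% of its T-type sum, and without them the T-type level was 3291. Scg2, a granin of secretory vesicles, had a level of 23726 in NR against 10540, 4974 and 3703 in S-type, T-type and M-type. This order, with NR first, was not that of Calr, which was higher in S-type and T-type than in NR.

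KDEL receptors and the COPI coat return escaped ER proteins such as BiP from the Golgi. Of the 10 genes of that list, 4 were above and 1 below 2-fold in T-type versus S-type (median 0.74) and 5 and 0 in T-type versus NR (median 0.86), where 28.6% of all genes were above. They were, without T-type cells 2 and 3, 3 and 1 (median 0.42) and 3 and 0 (median 0.70). None was past 2-fold in S-type versus NR, and 1 was on either side in M-type versus NR. Kdelr2 had a level of 4425 in T-type, 1501 in S-type, 860 in M-type and 785 in NR, but 82.4% of its T-type sum was in T-type cells 2 and 3, and without them the T-type level of Kdelr2 was 1171, under that of S-type. Kdelr1 had its lowest level, 885, in T-type. Copg1, a coat subunit, had 1635 in T-type (2160 without these cells) and 461 in S-type. Its T-type mean leaned on T-type cell 1, at 6931, and the T-type median was 610. The same cell was highest of the T-type for the coat subunits Arcn1 (5558) and Copb2 (9840). The T-type median of Arcn1, 608, was under its S-type mean of 811. That of Copb2, 4055, was above its S-type mean of 1339.

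Of 17 genes of collagen folding, to which P4hb belongs by its second role, 2 were above and 6 below 2-fold in T-type versus S-type, 1 and 8 in T-type versus NR (median −0.82), 1 and 4 in S-type versus NR, and 1 and 6 in M-type versus NR. Leaving out T-type cells 2 and 3 changed no T-type count of this list. P4ha1, the catalytic subunit that pairs with P4hb, stood at 1602 in T-type (1064 without these cells) and 4819 in NR (log2 ratio −1.59), whereas P4hb itself was 8363 against 7193. Plod2, a lysyl hydroxylase, went the other way, with 2232 in T-type (997 without these cells) and 394 in NR.

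The 19 genes of the unfolded protein response, which include Dnajb9 and Herpud1 from the lists above, gave 6 above and 7 below 2-fold in T-type versus S-type, 5 and 8 in T-type versus NR, 5 and 4 in S-type versus NR, and 4 and 8 in M-type versus NR. With T-type cells 2 and 3 left out the T-type counts were 6 and 10 (median −1.14 in place of 0.18) and 7 and 11 (−1.38 in place of 0.10). Atf4, the factor made when translation is slowed under stress, had a level of 5231 in T-type, 2931 in S-type, 1876 in M-type and 1520 in NR. In the same order, Herpud1 had 2969, 1355, 919 and 676. T-type cell 1 had 12116 for Herpud1, and the T-type median of 1235 was under the S-type mean. Wfs1, an ER membrane protein tied to calcium homeostasis, was highest in NR (814) and lowest in T-type (56.5). Trib3, a target of Atf4, had 1 read in NR, 37 in M-type, 149 in T-type and 402 in S-type. All 149 T-type reads came from T-type cell 4. Of 25 genes of the translocon and signal sequence processing, 5 were above and 2 below in T-type versus S-type, 5 and 2 in T-type versus NR, 0 and 2 in S-type versus NR, and 0 and 3 in M-type versus NR. The T-type counts of that list without these cells were 4 and 3 (median −0.06) and 4 and 2 (0.06). Spcs1 of the signal peptidase was even across types, from 10121 in M-type to 10647 in T-type.

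**Figure D4:**
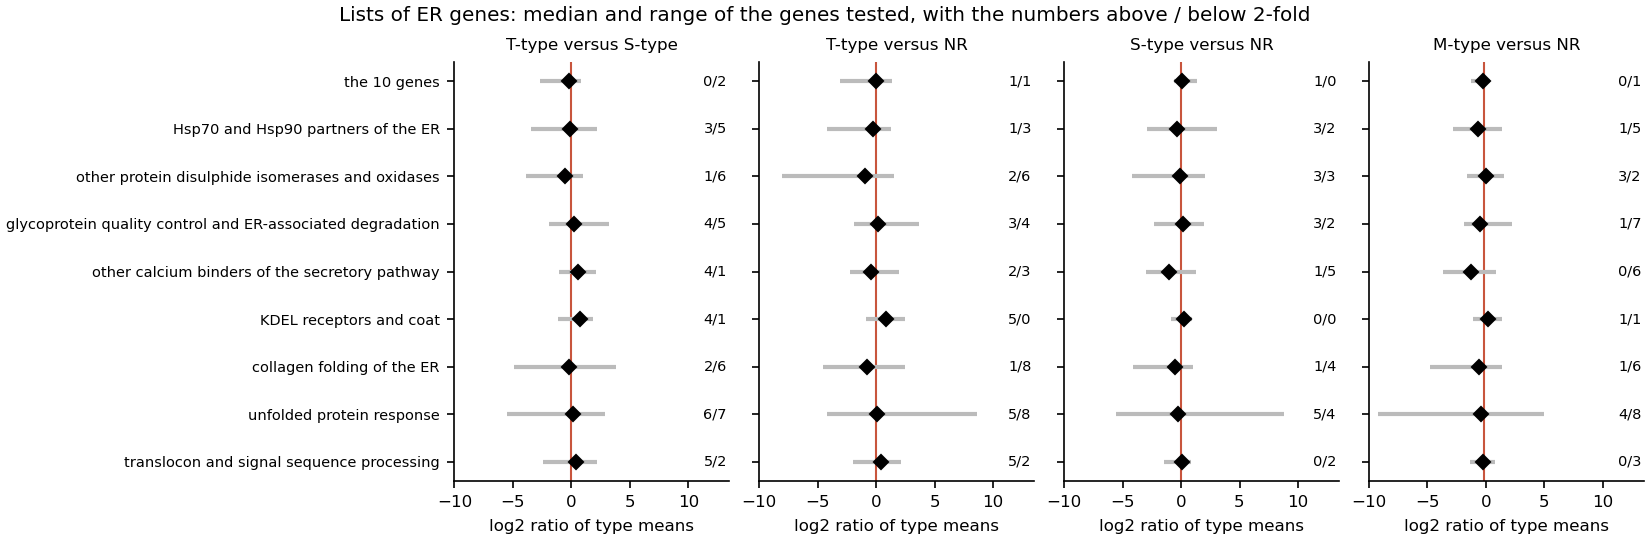
Log2 ratio of the type means (horizontal axis) for the 10 genes and the 8 lists, with a diamond at the median, a grey bar from the lowest to the highest gene compared and, at the right, the numbers above and below 2-fold; the red line is the median of all genes. The KDEL receptors and coat have their medians at 0.74 and 0.86 in the T-type contrasts (0.42 and 0.70 without T-type cells 2 and 3), and the 10 genes lie close to the red line in all 4.

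Across the 22 cells, the 10 genes varied together in part. The median Spearman rho of their 45 pairs was 0.20, beside −0.00056 over all pairs of the 3670 genes read in all cells. These are descriptions, since the cells of a type may share a culture and all values share a size factor. The highest pairs were Hsp90b1 with Canx (0.77), Canx with Pdia6 (0.67), Pdia4 with Pdia6 (0.57), Hspa5 with P4hb (0.55), Hsp90b1 with Pdia6 (0.54) and Hspa5 with Hsp90b1 (0.53). At the other end, Calr and its partner Pdia3 gave −0.37. When each cell was taken as its deviation from the mean of its type on the log2 scale, the median Pearson r of the pairs was 0.26, beside −0.00070 over all pairs.

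The 5 genes with the promoter motif had a median rho of 0.44 among themselves. The 5 without it had 0.20, and the 25 pairs with one of each had 0.16. This split rests on 10 pairs in each of the first 2 sets, whose values run from 0.21 to 0.77 and from −0.21 to 0.47. The sets also differ in level, as Hspa5 and Canx, the highest, hold the motif and Sdf4 and Pdia4, the lowest, do not. Calr belongs to the first set by its motif, with rho from 0.21 (Pdia6) to 0.49 (Hsp90b1) to its other members. Calu stood apart, with rho between −0.18 and 0.23 to all of the other 9.

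**Figure D5:**
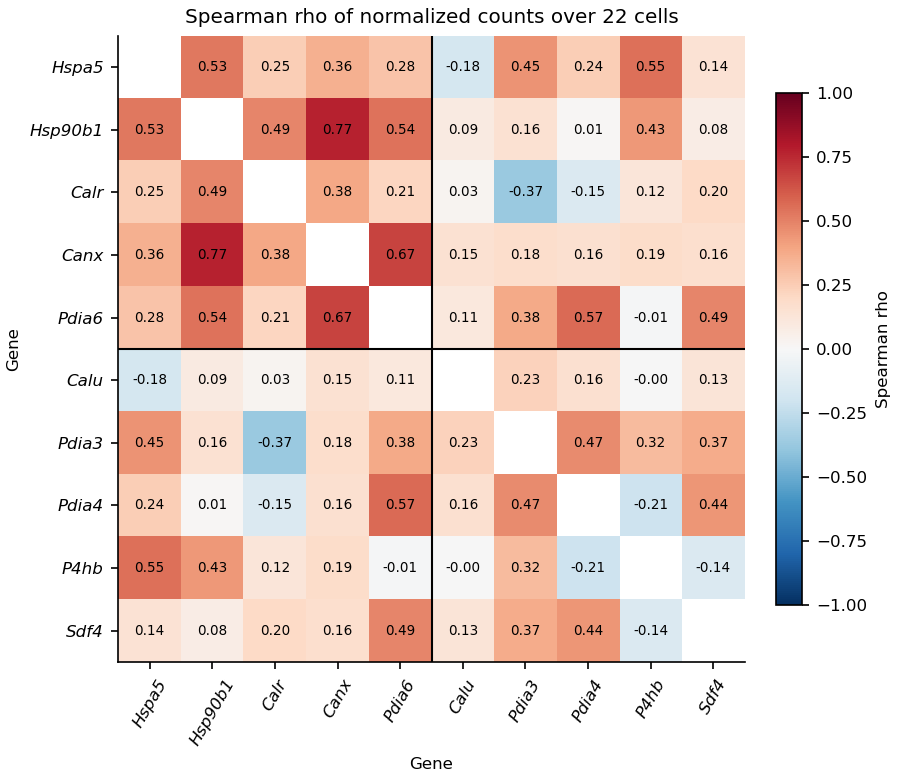
Spearman rho of normalized counts over 22 cells for each pair of the 10 genes, with lines between the 5 genes that hold the promoter motif (top and left) and the 5 that do not. The pairs at the top left, led by Hsp90b1 with Canx at 0.77, have a median of 0.44, and the row of Calu is near 0.

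Of the 8 lists, Creld2, Derl3, Dnajc3, Ero1lb and Syvn1 also held the motif, so that 5 of 130 list genes had it beside 5 of the 10. Of these 5, Dnajc3, the J-domain protein that binds BiP, had a read in every cell. The level of Dnajc3 was 7222 in T-type, 6273 in NR, 4575 in S-type and 3350 in M-type, and its median rho was 0.21 with the 5 genes that hold the motif and 0.11 with the other 5. The other gene outside the 10 with the motif and a read in every cell was Hnrnpa3, an RNA-binding protein of no list, whose median rho was 0.19 and −0.09. Dnajc3 and Hnrnpa3 gave −0.15 with each other. Creld2 had 986 in S-type, 312 in M-type, 120 in T-type and 119 in NR, with single S-type cells from 119 to 3028. The order of Creld2 is not that of Dnajc3 or of Hspa5. The order of Dnajc3 differs from that of Hspa5 only in T-type and NR. The T-type mean of Dnajc3 leaned on T-type cell 1, at 19817, and its T-type median was 5784, under the NR mean. Syvn1, the ubiquitin ligase of ER-associated degradation, ran from 102 in M-type to 142 in T-type.

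The genes whose levels most resembled the 10 were found by rho over the 22 cells with the mean of the 10 standardized log2(level + 1) values, among 3661 other genes with a read in every cell. They included Mmp14 (0.81), a membrane-bound matrix protease, Atp6ap1 (0.74), an accessory subunit of the vacuolar proton pump, Tm9sf2 (0.73), a membrane protein of endosomes and Golgi, and Ddr2 (0.71), a collagen receptor. At the other end was Pomp (−0.76), the assembly factor of the proteasome. Both ends were picked from 3661 values over only 22 cells, and whether these genes share a function was not tested. Mmp14 had a level of 1017 in S-type and of 376 in T-type, the lowest of the types.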

How the data were processed

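RNA of 22 single astrocytes was amplified and sequenced, and the authors deposited 1 table of raw counts per gene symbol and cell, counted on exons with VERSE (a form of HTSeq) after alignment with STAR to GRCm38. Versions and the strand setting of the counting are not given in the sources used here, so reads of genes that overlap on opposite strands may not be told apart. The libraries had no molecular identifiers. Total counts were 2937786 to 22131076 per cell, and no columns were left unused.

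Groups came from the labels. Each count was divided by the size factor of its cell, a median of ratios, in Python 3.11.15, NumPy 2.4.6 and pandas 2.3.3. Where a type had no read of a gene, its level was set as if it had held 3 reads in all. Genes read in 5 or more cells were compared as log2 ratios of type means, and 2-fold was the limit for counting a gene. Intervals were exact (SciPy 1.17.1): Poisson for totals of reads, and Clopper-Pearson for the split of reads, with the reads of a type reduced to the number that gives its weighted mean the same counting error. The steps were tested on simulated data. The members and lists were chosen with earlier results of these data known. By rule, the text names the 10 genes and, from each list, genes among the 3 with the highest mean level and the extremes of each contrast in either direction among those whose mean level was 10 or more. To these it adds the 5 genes nearest to the 10, of which 1 is not reported here, and the 1 farthest. The genes of the lists with the promoter motif were named because of the motif, and Trib3 and Ero1lb are given as reads because a type had at most 3. Positions came from GENCODE vM21 and promoters from RefSeq, both GRCm38, and the figures were drawn with matplotlib 3.10.9. Alternatives were CPM (counts scaled to 1000000 reads), TMM factors (edgeR 4.0.16 under R 4.3.3), thinning to the smallest library, other averages over cells and leaving out cells. Added after the values were seen were leaving out T-type cells 2 and 3 (from the 10 genes, the lists and the genes named from them), the split by motif, M-type versus S-type, and the shifts of all genes under each scaling.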

Additional observations from a re-analysis of the deposited data

Results flagged for a closer look

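Dixon's ratio was computed for each gene and for the share of reads on the 10 genes within each type, 44 groups of 5 or 6 cells in all. Of these, 4 groups held a cell far from the others. Chance gives about 1 in 20 where values are normally distributed, but the levels were taken without logarithms, so that rate need not hold here. Calu in T-type cell 1 was 23388, the next being 10471. Pdia6 in T-type cell 3 was 18327, from 3360 reads at a size factor of 0.183, the next being 4307. P4hb in NR cell 5 was 10746, the next being 7009. Sdf4 in T-type cell 6 was 2572, from 4015 reads, the next being 414. The 3 T-type values came from different cells.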

How the results depend on the processing

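The 41 log2 ratios of single genes kept their sign in 640 of 717 values under other settings, and the 7 past 2-fold kept it in 124 of 124 and stayed past 2-fold in 113. Those that did not were Sdf4 in T-type versus S-type (8 settings, −0.69 at the smallest), Calr in T-type versus NR as CPM (0.80 pooled and 0.71 as a mean) and Hspa5 in M-type versus NR without NR cell 2 (−0.80). No paired analysis was possible because the ratios come from no test, and what the numbers that some cell names share across types stand for is not given. With T-type cells 2 and 3 left out, the median log2 ratio of the 10 genes was −0.53 in T-type versus S-type and −0.26 in T-type versus NR, where 2 genes were then below 2-fold. Under CPM of the pooled reads, mean CPM, TMM factors, thinning, mean log2 levels and medians over cells, in that order, T-type versus S-type gave −0.61, −0.59, −0.26, −0.32, −0.46 and −0.33, and T-type versus NR gave −0.49, −0.39, −0.050, −0.15, −0.43 and −0.41. M-type versus NR gave −0.18, −0.19, −0.14, −0.31, −0.17 and −0.32. S-type versus NR gave 0.068 with TMM factors, 0.17 with mean log2 levels and −0.017 with medians over cells. CPM of the pooled reads moved the median of all genes too, by −0.48 and −0.47 in the T-type contrasts, so that the 10 genes stood at −0.07 and 0.04 relative to it. In M-type versus NR the shift was 0.11 and the 10 genes stood at −0.09.

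Leaving out 1 cell gave medians of −0.32 to 0.038, −0.18 to 0.22, −0.10 to 0.25 and −0.51 to −0.10 for the T-type contrasts with S-type and with NR, then S-type versus NR and M-type versus NR. In T-type versus S-type the number above 2-fold was then 0 to 1 and below 1 to 3, with 1 below under TMM factors and 1 above under medians over cells. In T-type versus NR 1 to 3 were below, with 0 above and 2 below under both kinds of CPM, and 3 below under mean log2 levels and medians over cells. In S-type versus NR 1 to 2 were above and 0 to 1 below. In M-type versus NR 0 to 2 were below, and 2 under medians over cells. Without 1 cell the share of reads was 0.499% to 0.656% for NR, 0.371% to 0.468% for M-type, 0.350% to 0.464% for T-type and 0.516% to 0.605% for S-type. As medians over cells it was 0.692%, 0.358%, 0.301% and 0.505% in that order, and from pooled reads 0.413% in T-type and 0.568% in NR. The median rho of pairs was 0.16 to 0.25 without 1 cell, 0.36 with CPM, 0.21 with TMM factors, 0.27 after thinning, 0.18 as Pearson r, 0.29 without T-type cells 2 and 3, and 0.44 among the 5 genes with the motif. The cause of these shifts was not tested. The T-type values of Pdia4 rest on few reads, 93 in all.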
